A study of Mus musculus with 6 samples.

Results

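The 44 genes described here encode proteins of mitosis: kinetochore and centromere proteins, spindle motors, checkpoint proteins, mitotic kinases and their partners. They were chosen by name, with earlier results of these data known, and matched to the gene symbols of the deposited tables. All 44 were found among 54838 genes, and all 44 were among the 13601 genes with enough reads to test. Their reads, summed over the 6 libraries, ran from 2413 for Cdc25c to 94525 for Mki67, so none entered through only the group in which it was higher.

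RNA was sequenced from B16F10 cells, a pigmented mouse melanoma line that grows fast in culture. The 3 samples of the first group received the vehicle DMSO, and the 3 samples of the second group received GSK126 at 10 µM. GSK126 inhibits EZH2, the enzyme of Polycomb repressive complex 2 that methylates lysine 27 of histone H3. The labels give no duration of treatment and no allele or transgene, and both groups are the same line under one growth protocol. Whether each replicate was a culture of its own is not said, so that p-values here reflect only the spread among the 6 samples, which could be technical.

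Each library held between 13594939 and 14713373 counts. The 9 pigment cell markers examined all had reads, with Tyrp1 the most abundant, and they summed to 22259.6 to 23684.5 CPM with DMSO (CPM is the count of a gene scaled to the size of its library) and 23834.2 to 24974.4 CPM with GSK126. These ranges did not overlap, and their part in the results below was not tested. Markers of other cell types were near 0. The sums were at most 3.53 CPM for 5 fibroblast markers, 4.23 CPM for 5 immune markers (Cd3e and Adgre1 at 0 reads), 0.702 CPM for 4 endothelial markers (Cdh5, Kdr and Tek at 0) and 0.142 CPM for 4 keratinocyte markers (Krt5, Trp63 and Dsg3 at 0). GSK126 replicate 3 stood apart from the other GSK126 libraries in the relation of counts to gene length, described with the members' lengths at the end.

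As background, a cell enters mitosis when cyclin B activates the kinase Cdk1, after Cdc25 phosphatases remove the inhibitory phosphates from it. Condensins and topoisomerase II compact the chromosomes, kinetochores attach them to spindle microtubules, and the spindle checkpoint holds the cell until every kinetochore is attached. The anaphase-promoting complex with Cdc20 then marks cyclin B and the inhibitor of separase for destruction, separase cuts the cohesin rings, and kinesins and the central spindle divide the cell. Transcripts of these genes are low in G1 and build up through G2 into mitosis, under the MuvB complexes, B-Myb and FoxM1. In RNA from a whole culture, a larger share of cells in G2 and mitosis and more RNA per such cell cannot be told apart.

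Part of the mitotic genes rose with GSK126, all by modest amounts, and none fell. Of the 44 genes, 15 passed the test as higher, 0 as lower, and 29 did not pass (quasi-likelihood test of edgeR, with p adjusted by Benjamini-Hochberg over all tested genes and called below 0.05). That is 34.1% of the members, beside 5.87% of all tested genes called higher, 5.18% called lower and 11.1% called in either direction. The list was chosen with earlier results of these data known, so these shares describe it and test nothing. Among the 6970 tested genes at least as abundant as the lowest member, 7.04% were called higher. The rises ran from 1.14-fold for Tpx2, an activator of the Aurora A kinase, to 1.39-fold for Cenpf, a large protein of the outer kinetochore. The median log2 fold change of the members was 0.15, beside 0.00 for all tested genes, and 38 of 44 were above 0, beside 49.9% of all tested genes. The GSK126 libraries all lay above the DMSO libraries in 25 members and all below in none, beside 17.6% and 16.8% of all tested genes.

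Most single calls depended on having all 6 libraries. With 1 library left out, 4, 4 and 5 members rose when it was DMSO replicate 1, 2 or 3, and 8, 6 and 14 members rose when it was GSK126 replicate 1, 2 or 3. The set of 14 held 12 of the 15 genes and also Ccnb2 and Cdc25c. In the same order, 2.02%, 2.19%, 2.62%, 2.69%, 3.08% and 4.64% of all tested genes were called higher. Cenpe, Cenpf and Mki67 passed in all 6 of these sets and Kif23 in 5. The median log2 fold change of the members stayed between 0.14 and 0.19 over them.

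**Figure D1:**
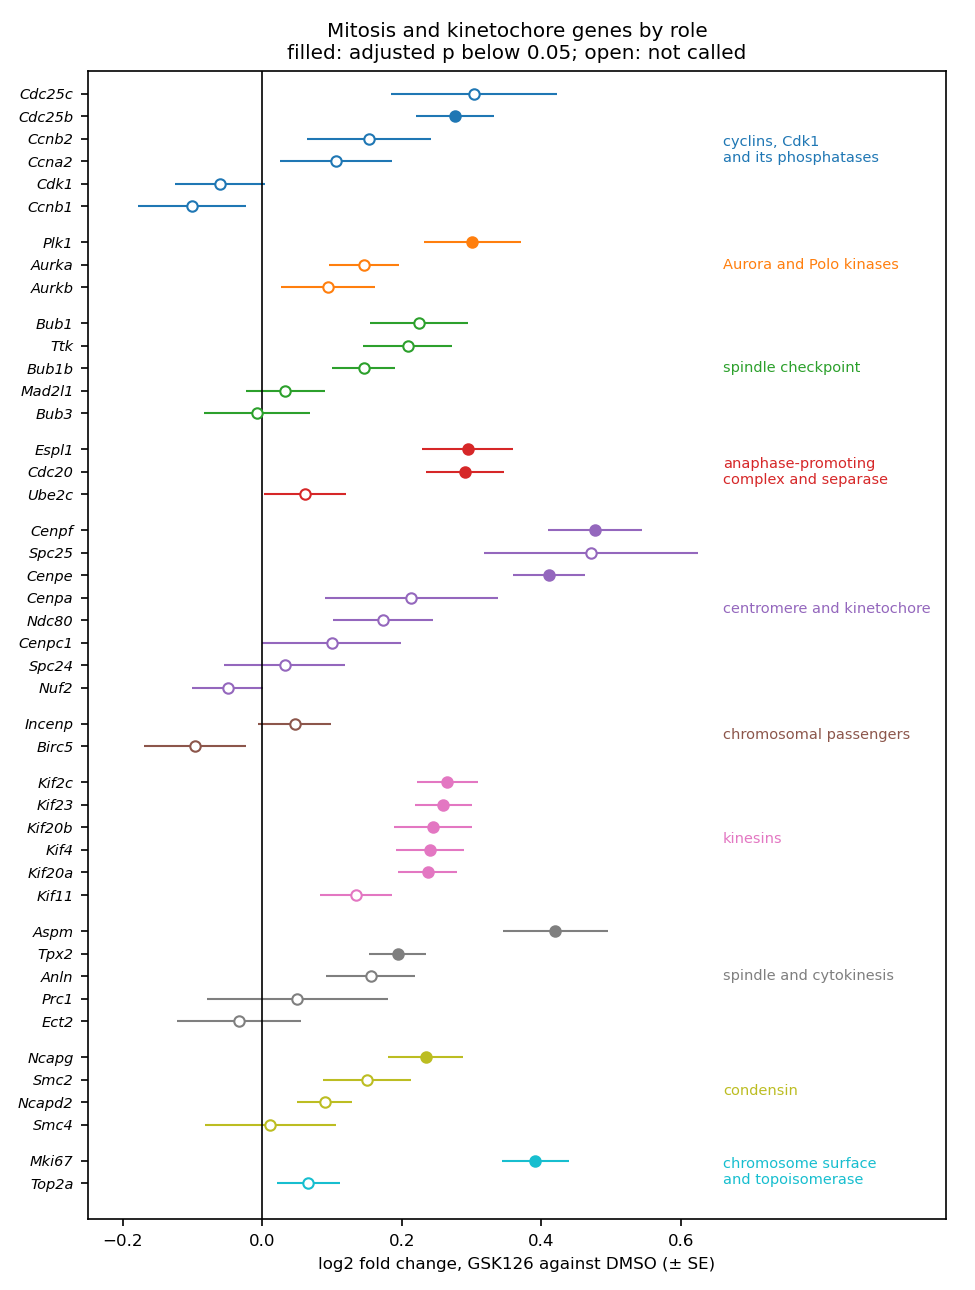
The log2 fold change of each of the 44 members, GSK126 against DMSO, with its standard error (SE), grouped by role; filled points passed the test (adjusted p below 0.05 by edgeR) and open points did not. The 15 filled points lie between 0.19 and 0.48, and 5 of the 6 Kif genes grouped as kinesins are among them.

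**Figure D2:**
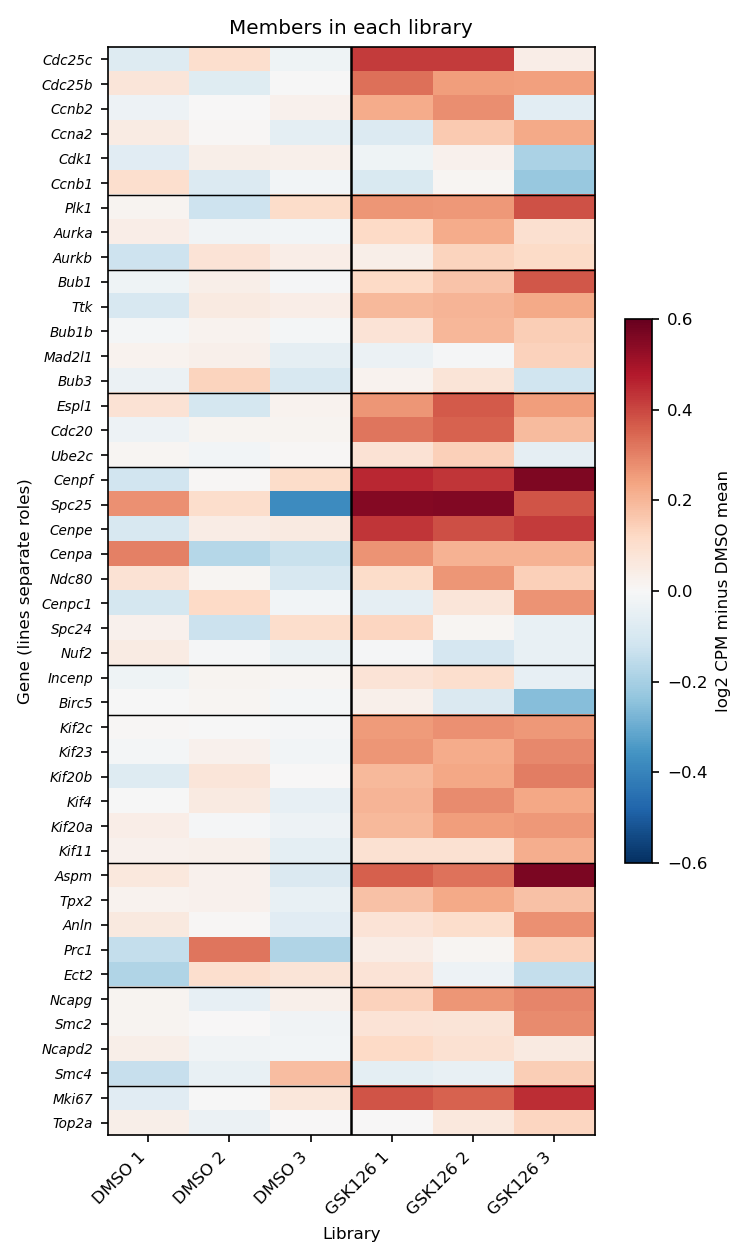
The log2 CPM of each member in each of the 6 libraries, as the difference from the mean of the 3 DMSO libraries of that gene, with lines between roles. In 25 of the 44 rows all 3 GSK126 libraries lie above all 3 DMSO libraries, while Ccnb1, Cdk1 and Birc5 were lowest in GSK126 replicate 3.

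Most of the members share short promoter sequences, which played no part in choosing them. RefSeq (GRCm38.p6) gave a promoter, from 250 bases before the transcript start to 50 after it, for 36 of the 44 members. The sequences searched were the cell cycle homology region (CHR; TTTGAA or TTCGAA), which binds MuvB complexes, and CCAAT, which binds the factor NF-Y, each on both strands. A match of one can share at most 1 base with a match of the other. A CHR match was present in 30 of 36 member promoters (83.3%), beside 19.4% of 27025 promoters of all genes. CCAAT was present in 29 (80.6%), beside 37.9%, and both in 26 (72.2%), beside 7.7%. Both were present in 10 of 13 promoters of members that rose (76.9%) and in 16 of 23 of those that did not pass (69.6%). A match is a description of letters and not a binding site. The last 120 bases before the start of 6 members are shown because they carry these matches in members of both kinds, with the matches in capitals and each read 5′ to 3′ on the strand of the gene. Cdc20 (chr4:118437344-118437463, minus strand), Espl1 (chr15:102296173-102296292, plus) and Mki67 (chr7:135716380-135716499, minus) rose. Cdk1 (chr10:69352913-69353032, minus), Kif11 (chr19:37376262-37376381, plus) and Top2a (chr11:99024190-99024309, minus) did not pass the test.
Cdc20: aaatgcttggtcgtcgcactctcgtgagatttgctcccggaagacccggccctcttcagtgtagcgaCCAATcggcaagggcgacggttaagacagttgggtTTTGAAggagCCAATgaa
Espl1: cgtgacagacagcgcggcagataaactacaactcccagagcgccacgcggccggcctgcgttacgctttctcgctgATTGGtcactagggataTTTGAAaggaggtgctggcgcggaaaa
Mki67: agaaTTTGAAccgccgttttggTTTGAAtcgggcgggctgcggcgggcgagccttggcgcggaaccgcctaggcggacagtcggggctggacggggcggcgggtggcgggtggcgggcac
Cdk1: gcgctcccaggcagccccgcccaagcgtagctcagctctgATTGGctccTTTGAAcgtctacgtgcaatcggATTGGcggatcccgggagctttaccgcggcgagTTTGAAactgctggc
Kif11: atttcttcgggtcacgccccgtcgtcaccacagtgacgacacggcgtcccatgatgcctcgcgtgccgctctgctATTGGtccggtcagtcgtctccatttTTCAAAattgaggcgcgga
Top2a: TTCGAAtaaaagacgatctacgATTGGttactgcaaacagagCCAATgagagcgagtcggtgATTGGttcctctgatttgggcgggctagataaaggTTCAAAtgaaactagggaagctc
In Cdc20 and Espl1 a CHR match begins 18 and 27 bases before the start, and in Cdk1 and Kif11, which did not pass the test, 15 and 19 bases before it. The start meant is that of RefSeq. By the gene coordinates given with the counts, the last 27 bases shown for Espl1, 26 for Cdk1 and 9 for Cdc20 lie inside the gene. The matches at 27 bases in Espl1 and at 15 bases in Cdk1 are among them.

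Of the 6 genes for cyclins, Cdk1 and its phosphatases, the phosphatase gene Cdc25b rose, and Cdk1 and the cyclin genes did not pass the test. Over all tested genes, 5.87% were called higher. Cdc25b, the phosphatase that first activates Cdk1, stood at 95.7, 86.5 and 90.9 CPM in the DMSO libraries and at 114, 108 and 108 CPM in the GSK126 libraries. The groups did not overlap, and all 3 GSK126 libraries were the high ones (log2 fold change 0.28 with SE 0.06, edgeR adjusted p = 0.0241). The Cdc25b call ended without DMSO replicate 1, 2 or 3 and without GSK126 replicate 1 or 2, where the edgeR adjusted p reached 0.0898. Its relative Cdc25c had 24.1, 27.3 and 25.0 CPM with DMSO and 34.1, 34.1 and 26.2 CPM with GSK126. GSK126 replicate 3 was the low library there and lay within the DMSO range. Cdc25c did not pass (log2 fold change 0.30 with SE 0.12, edgeR adjusted p = 0.152), but it did without GSK126 replicate 3 (0.42, adjusted p = 0.0331).

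Ccnb1, which encodes cyclin B1, had 99.7, 87.9 and 92.0 CPM with DMSO and 87.3, 93.9 and 79.5 CPM with GSK126, and the groups overlapped. Its log2 fold change was -0.10 (SE 0.08, adjusted p = 0.447 by edgeR). The Ccnb1 value is uncertain, because the pseudogene Ccnb1-ps held 5536 reads over the 6 libraries beside 7603 for Ccnb1. Ccnb1-ps had a log2 fold change of 0.21 (SE 0.07, adjusted p = 0.0893 by edgeR), opposite in sign, and the summed counts gave 0.03 (SE 0.06, adjusted p = 0.797). Ccnb2, which encodes cyclin B2, had 82.9, 84.9 and 86.3 CPM with DMSO and 98.8, 102.6 and 81.1 CPM with GSK126. As for Cdc25c, GSK126 replicate 3 was the low library, and Ccnb2 passed only without it among the fits with a library left out (log2 fold change 0.25, adjusted p = 0.0295 by edgeR, beside 0.15 and 0.318 with all libraries).

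Cdk1 itself stood at 189, 203 and 202 CPM with DMSO and 194, 201 and 173 CPM with GSK126, with overlapping groups (log2 fold change -0.06 with SE 0.07, edgeR adjusted p = 0.586). Ccna2, which encodes the S and G2 phase cyclin A2, had 354, 344 and 328 CPM with DMSO and 322, 381 and 399 CPM with GSK126. Its GSK126 libraries lay on both sides of the DMSO libraries (log2 fold change 0.11 with SE 0.08, edgeR adjusted p = 0.442). Ccna2 shares 510 bp of exons with Exosc9 on the other strand, so part of its reads is uncertain. Their summed counts did not pass either (0.09, SE 0.07, adjusted p = 0.450 by edgeR).

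Of the 3 Aurora and Polo kinases, Plk1 rose, beside 5.87% of all tested genes. Plk1, the Polo kinase that acts from centrosome maturation to cytokinesis, had 135, 123 and 144 CPM with DMSO and 160.4, 160.1 and 174 CPM with GSK126, with no overlap. Its log2 fold change was 0.30 (SE 0.07, adjusted p = 0.0358 by edgeR), and of the sets with a library left out it passed only without DMSO replicate 3 (adjusted p of up to 0.109 in the others). Aurka, the spindle pole kinase, also had groups that did not overlap, from 129 to 135 CPM against 140.1 to 153 CPM, without passing the test (log2 fold change 0.15 with SE 0.05, edgeR adjusted p = 0.111). For Aurkb, the kinase of the chromosomal passenger complex, the log2 fold change was 0.09 (SE 0.07) and the groups overlapped. The other passenger proteins had values close to 0, with 0.05 (SE 0.05) for Incenp, the scaffold, and -0.10 (SE 0.07) for Birc5, which encodes survivin. Birc5 had 140.5, 142 and 139 CPM with DMSO and 144, 132 and 118 CPM with GSK126, so that the GSK126 libraries spread around the tight DMSO values.

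None of the 5 spindle checkpoint genes passed the test, beside 5.87% of all tested genes called higher. Bub1, Bub1b and Ttk had groups that did not overlap, with GSK126 higher, beside 17.6% of all tested genes. Their adjusted p values were 0.0841, 0.0861 and 0.0843 by edgeR. Bub1, a kinase at the kinetochore, had 199, 207 and 201 CPM with DMSO and 219.6, 228 and 262 CPM with GSK126, with GSK126 replicate 3 the highest (log2 fold change 0.22, SE 0.07). Ttk, the kinase MPS1 that starts checkpoint signalling, had 43.6, 48.3 and 47.9 CPM against 53.3, 53.6 and 54.5 CPM (0.21, SE 0.06). Bub1b, which encodes BubR1 of the checkpoint complex, gave 0.15 on the same scale (SE 0.05). Mad2l1 and Bub3, also parts of that complex, had values of 0.03 (SE 0.06) and -0.01 (SE 0.08) with overlapping groups. Its further part Cdc20 rose and is given below with the anaphase-promoting complex.

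Downstream of the checkpoint, 2 of 3 genes rose, beside 5.87% of all tested genes. Cdc20, the activator of the anaphase-promoting complex, had 99.6, 103.01 and 102.99 CPM with DMSO and 127, 130.2 and 116 CPM with GSK126. The groups did not overlap (log2 fold change 0.29 with SE 0.06, edgeR adjusted p = 0.0210), and the call ended in 5 of the 6 sets with a library left out, all but that without GSK126 replicate 3 (adjusted p of up to 0.0867). Cdc20 shares 53 bp of its 1868 bp of exons with Elovl1 on the other strand, which had -0.04 (SE 0.27). Their counts added up did not pass (0.21, SE 0.09, adjusted p = 0.189 by edgeR). The sum takes in all Elovl1 reads and not only those of shared bases, so it cannot decide the Cdc20 call. Espl1, which encodes separase, had 91.7, 80.3 and 87.7 CPM with DMSO and 104, 112 and 102.99 CPM with GSK126 (0.29, SE 0.07, adjusted p = 0.0320 by edgeR). Its call also held only without GSK126 replicate 3 (adjusted p of up to 0.0993 in the other sets). Ube2c, the ubiquitin-conjugating enzyme of the complex, had a log2 fold change of 0.06 (SE 0.06) and overlapping groups.

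Of the 8 centromere and kinetochore genes 2 rose, Cenpf and Cenpe, beside 5.87% of all tested genes. Cenpf (GRCm38 chromosome 1, 189640606 to 189688086) had 207, 226 and 243 CPM with DMSO and 307, 302 and 331 CPM with GSK126. Every GSK126 library exceeded every DMSO library, and the mean went from 225 ± 17.6 to 314 ± 15.4 CPM (SD, n = 3, with a log2 fold change of 0.48 and SE 0.07, edgeR adjusted p = 0.00711). Cenpe (chromosome 3, 135212537 to 135273611), the kinesin that carries chromosomes to the spindle equator, had 167.5, 185 and 186 CPM with DMSO and 242, 235 and 239.6 CPM with GSK126. The GSK126 libraries differed little from each other, and the mean went from 179.5 ± 10.4 to 239 ± 3.48 CPM (SD, n = 3; 0.41, SE 0.05, adjusted p = 0.00497 by edgeR). Over the sets with a library left out, the adjusted p reached at most 0.0361 for Cenpf and 0.0240 for Cenpe.

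Spc25, a subunit of the NDC80 complex that grips microtubules, had an estimate close to that of Cenpf but did not pass. It stood at 92.5, 82.3 and 58.8 CPM with DMSO and 112.0, 112 and 99.4 CPM with GSK126, with no overlap but with a low DMSO replicate 3 (log2 fold change 0.47 with SE 0.15, edgeR adjusted p = 0.0961, and 0.0193 by DESeq2). The other subunits of the complex did not pass. The log2 fold changes were 0.17 (SE 0.07) for Ndc80, 0.03 (SE 0.09) for Spc24 and -0.05 (SE 0.05) for Nuf2, with adjusted p values from 0.172 to 0.849 by edgeR, and differences between subunits were not tested. Cenpa, the histone H3 variant of centromeres, had 89.6, 64.5 and 66.2 CPM with DMSO and 87.5, 84.0 and 83.9 CPM with GSK126. DMSO replicate 1 was the high library, and Cenpa passed without it (log2 fold change 0.38, adjusted p = 0.0334 by edgeR, beside 0.21 and 0.315 with all libraries). Cenpc1, which binds the Cenpa nucleosome, had a log2 fold change of 0.10 (SE 0.10).

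**Figure D3:**
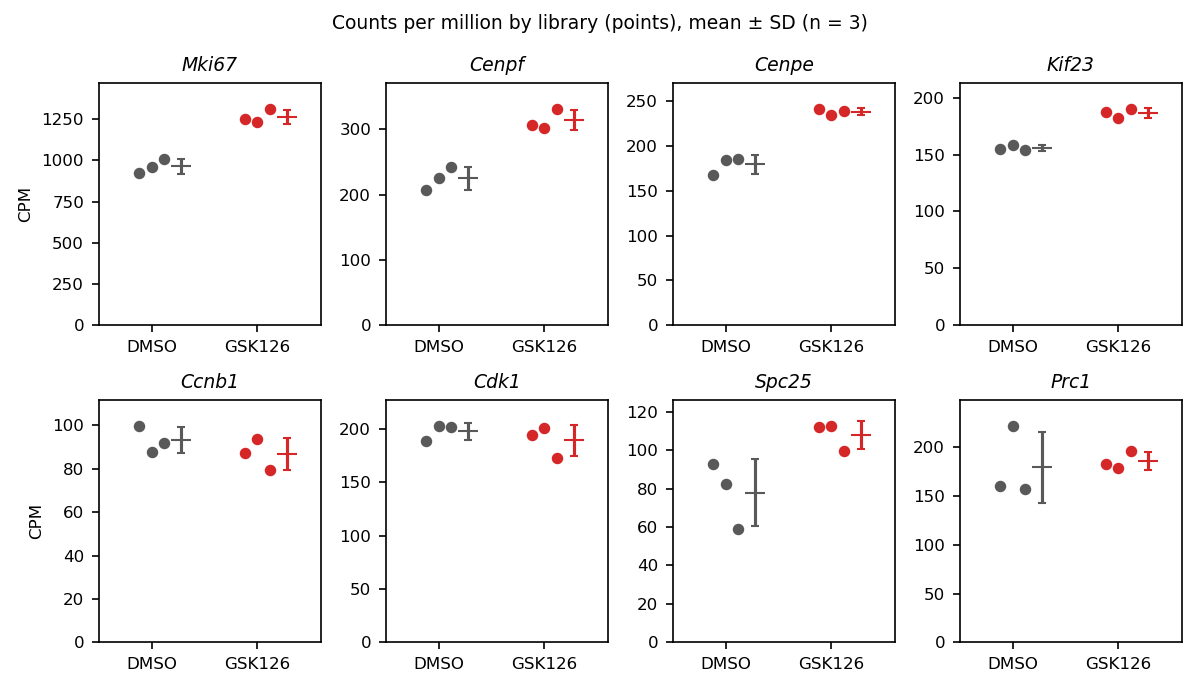
CPM in each library (points) and the mean ± SD of each group (n = 3) for 8 members, on axes that start at 0. Mki67, Cenpf, Cenpe and Kif23 show groups that do not overlap, Ccnb1, Cdk1 and Prc1 show groups that do, and in Spc25 DMSO replicate 3 is low.

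Of the 6 Kif genes, the kinesins among the members other than Cenpe, 5 rose, beside 5.87% of all tested genes. All 6 had groups that did not overlap, with GSK126 higher, beside 17.6% of all tested genes. The estimates of those 5 lay between 0.24 and 0.27 on the log2 scale. Kif23, the motor of the central spindle (MKLP1), had 154.5, 159 and 154.3 CPM with DMSO and 187, 182 and 190.1 CPM with GSK126 (0.26, SE 0.04, adjusted p = 0.0112 by edgeR). It lost the call only without DMSO replicate 1 (adjusted p = 0.0592). Kif2c, the microtubule depolymerase MCAK, had close replicates, with 82.3, 81.7 and 81.4 CPM against 97.8, 98.9 and 98.1 CPM (0.265, SE 0.04, adjusted p = 0.0123). Leaving out any single DMSO replicate (1, 2 or 3) ended the Kif2c call, with an adjusted p no higher than 0.0578. Kif20a, a motor of cytokinesis (MKLP2), had 186, 180.5 and 178 CPM against 208, 216 and 217.5 CPM (0.24, SE 0.04, adjusted p = 0.0162). Kif20b, its relative, had 130.5, 144.5 and 138 CPM against 157.5, 161 and 170.3 CPM (0.24, SE 0.06, adjusted p = 0.0344). Kif4, the chromosome-arm motor, had 105, 109 and 101.7 CPM against 121, 128 and 124 CPM (0.24, SE 0.05, adjusted p = 0.0252).

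The calls of Kif20a, Kif4 and Kif20b ended in 4, 5 and 6 of the 6 sets of remaining libraries, where the highest edgeR adjusted p was 0.0718, 0.0935 and 0.120. Kif20a stayed called without GSK126 replicate 1 or 3, and Kif4 without GSK126 replicate 3. Kif20a shares 1271 bp of exons with Cdc23 on the other strand, which had a log2 fold change of -0.04 (SE 0.06), and their summed counts did not pass (0.15, SE 0.04, adjusted p = 0.0701 by edgeR). Kif4 shares 832 bp with Pdzd11, and there the summed counts passed (0.20, SE 0.04, adjusted p = 0.0279 by edgeR). Each sum takes in all reads of the partner gene, so it cannot decide the call of Kif20a or Kif4. Kif11, the motor Eg5 that pushes the spindle poles apart, did not pass, at 262, 263 and 247 CPM against 274, 273.5 and 299 CPM (0.13, SE 0.05, adjusted p = 0.149 by edgeR).

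Among spindle and cytokinesis proteins 2 of 5 rose, beside 5.87% of all tested genes. Aspm, a spindle pole protein whose human homologue is a microcephaly gene, had 147, 143 and 132 CPM with DMSO and 180.1, 176 and 208 CPM with GSK126. The groups did not overlap, and GSK126 replicate 3 was the highest (log2 fold change 0.42 with SE 0.08, edgeR adjusted p = 0.0162). Leaving out DMSO replicate 1, 2 or 3 ended the Aspm call, at adjusted p values no higher than 0.0588. Tpx2 had 271, 272 and 259 CPM against 302.4, 313 and 302.1 CPM (0.19, SE 0.04, adjusted p = 0.0274 by edgeR), and its call held only without GSK126 replicate 3 (adjusted p of up to 0.0915 in the other sets). Anln, which encodes anillin of the contractile ring, had groups that did not overlap but did not pass (0.15, SE 0.06, adjusted p = 0.170). Prc1, which bundles microtubules of the central spindle, had 161, 221 and 157 CPM with DMSO and 183, 179 and 196 CPM with GSK126. DMSO replicate 2 was the highest of all 6 libraries, and the log2 fold change was 0.05 (SE 0.13). Ect2, the exchange factor that activates RhoA in cytokinesis, had a value of -0.03 (SE 0.09).

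Of the condensin genes, Ncapg of condensin I rose. It had 166.5, 159 and 168 CPM with DMSO and 181, 198 and 202 CPM with GSK126 (log2 fold change 0.23 with SE 0.05, edgeR adjusted p = 0.0365). Its call held only without GSK126 replicate 1 among the sets with a library left out (adjusted p of up to 0.126 in the others). Ncapg shares 944 bp of exons with Lcorl, and the summed counts passed (0.22, SE 0.05, adjusted p = 0.0379 by edgeR). That sum, too, takes in all reads of the partner and cannot decide the call. Ncapd2, another condensin I subunit, and the core ATPase Smc2 had groups that did not overlap without passing, with log2 fold changes of 0.09 (SE 0.04) and 0.15 (SE 0.06). Their ATPase partner Smc4 had 371, 395 and 464 CPM against 392, 395 and 452 CPM, overlapping in full (0.01, SE 0.09).

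The proliferation marker Mki67 rose and the topoisomerase gene Top2a did not pass. Mki67 (chromosome 7, 135689784 to 135716361), which encodes the chromosome surface protein Ki-67, was the most abundant member, at 920.4, 962 and 1011 CPM with DMSO and 1250.2, 1232 and 1311 CPM with GSK126. The groups did not overlap, and the mean went from 964 ± 45.2 to 1264 ± 41.8 CPM (SD, n = 3, with a log2 fold change of 0.39 and SE 0.05, edgeR adjusted p = 0.00427, at most 0.0266 with a library left out). Top2a, the topoisomerase that untangles chromosomes, had 846, 808 and 828 CPM against 828, 864 and 905 CPM (0.07, SE 0.045, adjusted p = 0.390 by edgeR). Both genes are long, with 10061 and 9013 bp of exons, and the difference between them was not tested.

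Levels can be compared between genes only per length. On the scale of CPM per kilobase of exons, the DMSO means ran from 5.18 for Cdc25c to 95.9 for Mki67, followed by 91.8 for Top2a, 83.7 for Ccna2 and 78.7 for Smc4. The order depends on the length used, since the length behind the deposited FPKM exceeded the exonic length in 40 of the 44 members. By the mean FPKM with DMSO, Mki67 (93.0) and Top2a (76.9) were again the highest, followed by Ccnb2 (55.2), Ccna2 (54.3) and Incenp (54.3), while Smc4 stood at 49.9, Cdc25c at 13.1 and the lowest member, Cenpc1, at 6.57. On the scale of exonic length, members that rose stood across the range, with Espl1 at 9.90, Aspm at 12.1 and Cenpf at 14.6 CPM per kilobase near its low end and Tpx2 at 57.2 and Plk1 at 60.9 near its high end. By library, the members together held 0.836%, 0.846% and 0.836% of all counts with DMSO and 0.938%, 0.948% and 0.967% with GSK126. The median difference of the members from their DMSO means was 0.12, 0.20 and 0.20 on the log2 scale in GSK126 replicates 1 to 3, and 37, 39 and 34 of the 44 lay above the DMSO mean.

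Gene length was examined because GSK126 replicate 3 carried a trend with length. Over 10970 genes of at least 5 CPM, its median deviation from the other GSK126 libraries went from -0.125 in the shortest of 5 equal length classes (up to 2384 bp of exons) to 0.10 in the longest (from 7786 bp) on the log2 scale. The DMSO libraries stayed between -0.04 and 0.04 in every class. The members are longer than most genes, with a median exonic length of 5298 bp beside 4110 bp for all tested genes, from 1531 bp for Ccnb2 to 15433 bp for Cenpf.

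The 22 members above 5298 bp and the 22 below had similar medians. Their median log2 fold changes were 0.16 and 0.15, a difference of 0.01, and 9 long and 6 short members rose. All tested genes split at the same length had medians of 0.035 and -0.02, with 7.3% and 5.06% called higher. By GSK126 replicate, the median of the long members minus that of the short ones was -0.01, -0.05 and 0.09 against the DMSO mean, so the third replicate went the other way. Without that replicate the medians were 0.15 for long and 0.16 for short members, with 7 called in each, beside 0.01 and 0.00 for all genes. With the length trend of each library removed in the model they were 0.14 and 0.17, and 14 of 44 members rose, with only Espl1 lost (adjusted p = 0.0553 by edgeR). The log2 fold changes of the long genes Cenpf, Cenpe, Aspm and Mki67 were then 0.40, 0.38, 0.37 and 0.35.

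The members that rose were found in all 5 length classes. Of the 10 members in the longest class, 6 rose, namely Espl1, Cenpe, Cenpf, Kif23, Aspm and Mki67, beside 8.16% of all genes of that class. The median log2 fold change of the 10 was 0.28, the same without GSK126 replicate 3 (0.28), and 0.25 with the length trend removed. The other 4, Mad2l1, Prc1, Anln and Top2a, did not pass. In the next class 3 of 12 rose (median 0.14), beside 7.06% of all genes of that class. In the middle class 3 of 12 rose (0.17, beside 7.16%) and in the one below 1 of 7 (0.09, beside 5.93%). In the shortest class 2 of 3 rose (0.29, beside 4.74%), Plk1 and Cdc20 but not Ccnb2. Across the 44 genes, Spearman's rho of the log2 fold change with exonic length was 0.17, beside 0.15 over 13597 genes. It was 0.04 and 0.05 without GSK126 replicate 3, and the genes share the same 6 libraries, so no p is given.

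**Figure D4:**
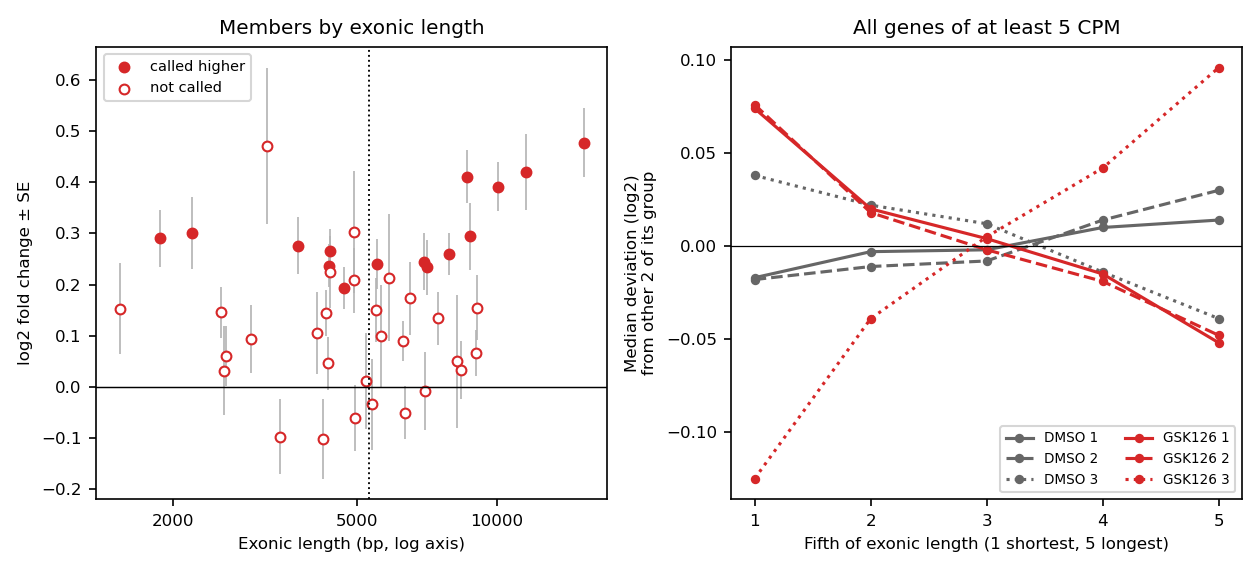
Left, log2 fold change (± SE) of each member against its exonic length on a log axis, filled where called, with a dotted line at the median member length of 5298 bp. Right, the median deviation of each library from the other libraries of its group in 5 classes of exonic length over all genes of at least 5 CPM, where GSK126 replicate 3 runs from -0.125 to 0.10.

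Mitotic genes outside the 44 also rose in part, most of them spindle genes. Of 118 further mitotic genes, all tested, 17 rose, 1 fell and 100 did not pass. That is 14.4% called higher beside 5.87% of all tested genes, and their median log2 fold change was 0.06. This list, too, was chosen with earlier results of these data known. Spindle, kinesin and cytokinesis genes made up 12 of the 17, out of 23 in that role. Fam83d, which brings a kinase to the spindle, went from 34.4 ± 1.43 to 48.8 ± 1.04 CPM (SD, n = 3, with a log2 fold change of 0.50 and SE 0.06, edgeR adjusted p = 0.00487). The kinesin-8 genes Kif18b (0.36, SE 0.05) and Kif18a (0.34, SE 0.07) rose, as did the spindle genes Ckap2l (0.36, SE 0.05), Dlgap5 (0.32, SE 0.05), Troap (0.38, SE 0.07), Depdc1a (0.355, SE 0.07) and the centriole gene Cenpj (0.27, SE 0.07), all on the log2 scale. Fam83d, Kif18b, Ckap2l, Dlgap5 and Ccnf passed in all 6 sets with a library left out. The calls of Troap and Cdca3 held only without GSK126 replicate 3, that of Kif18a only without GSK126 replicate 1, and that of Depdc1a without GSK126 replicate 1 or 3. The Sgo2a call ended without DMSO replicate 1 or 2 or GSK126 replicate 2, and those of Cenpm and Cenpj ended in all 6 sets. The adjusted p of these 7 reached at most 0.142 by edgeR, for Cdca3. With all 6 libraries, Cenpj did not pass by DESeq2 (adjusted p = 0.110), and Cdca3 did not pass by limma-voom (0.0502) or by limma on log2(FPKM + 1) (0.0529).

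Outside the spindle, Ccnf, which encodes cyclin F of an SCF ubiquitin ligase, rose from 59.2 ± 2.31 to 74.9 ± 0.966 CPM (SD, n = 3, with a log2 fold change of 0.34, SE 0.06). Cdca3 (0.25, SE 0.06), the shugoshin gene Sgo2a, which protects centromeric cohesin (0.32, SE 0.065), and Cenpm of the inner kinetochore (0.38, SE 0.08) also rose. The gene that fell, named after its value was seen, was Cdc25a, the Cdc25 phosphatase that also acts at the start of S phase (-0.25, SE 0.06, adjusted p = 0.0448 by edgeR). Its call held only without GSK126 replicate 3 (adjusted p of up to 0.144 in the other sets), and it was lost by limma on log2(FPKM + 1) (adjusted p = 0.0649). Kif18a and Sgo2a share exons with Mettl15 and Kctd18, so part of their reads is uncertain.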

How the data were processed

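RNA-seq counts of reads per gene and FPKM values (counts scaled by gene length and library size) were deposited by the authors for each of 6 libraries. The submitters' processing notes name CASAVA 1.8, HISAT2 and the builds GRCm38.p4 and mm10. The sources used here do not give the counting tool, its strand setting or its treatment of shared reads. The FPKM values of the authors entered only in alternatives and in a second ranking of levels.

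Counts were tested with edgeR 4.0.16 in R 4.3.3 (filterByExpr, TMM factors from 0.994 to 1.007, quasi-likelihood F test, Benjamini-Hochberg adjustment over 13601 genes, threshold 0.05). The standard error was taken as the absolute log2 fold change divided by the square root of F. CPM used the TMM library sizes. DESeq2 1.42.0, limma 3.58.1, other filters, leaving out each library, the replicate number as a block and removal of each library's trend with gene length were alternatives. The scripts were tested on simulated data. Exonic lengths and shared exons came from GENCODE M21, which held 54809 of the 54838 identifiers, and promoters from RefSeq.

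The 44 members and all gene lists were chosen with earlier results of these data known. All 44 members are named. Of the other mitotic genes, at most 12 that passed are named, by size of change, with Foxm1 and Mybl2. Genes sharing exons with a named gene are given where their reads were at least 10% of those of the named gene. Cdc25a, which also passed, falls outside this rule and was named after its value was seen. The depth was 13594939 to 14713373 counts a library. The share of counting error in the members' spread was not computed, and the number of libraries also limits the precision.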

Additional observations from a re-analysis of the deposited data

How the results depend on the processing

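The members' count of 15 stayed at 14 to 16 with relative log size factors, DESeq2, limma-voom, a minimum of 5 CPM, limma on log2(FPKM + 1) or log2(FPKM + 0.1), or the length trend removed. It was 9 with no filter on low counts and 9 for FPKM with no filter, where more genes were tested, and 4 to 14 with a library left out. For the other mitotic genes, 7 rose with no filter and 7 for FPKM with no filter, and with a library left out 5 to 16 rose and 0 to 3 fell, while 0 fell with no filter. Over all genes, 463 rose and 436 fell with no filter, 440 and 427 for FPKM with no filter, and with a library left out 279 to 640 rose and 250 to 603 fell.

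With the replicate number as a block, 230 genes rose and 178 fell, among them 3 members (Cenpe, Cenpf and Mki67) and 4 other mitotic genes that rose and 0 that fell. With the block and the length trend removed, 397 rose and 386 fell, among them 7 members and 8 other mitotic genes that rose. Whether libraries of the same number belong together is not said. Deviations of same-numbered libraries correlated at 0.07, 0.02 and -0.04. DMSO replicates 1 and 2 correlated best with their own number, and DMSO replicate 3 with GSK126 replicate 2 (0.08). So few values cannot decide whether the numbers are pairs. The cause of the lower counts was not tested.

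The members whose sign turned were all outside the calls. Ccnb1 was at 0.028 when summed with its pseudogene. Smc4 was at -0.006 with the length trend removed and at -0.002 with the block added. With a library left out, Smc4 ranged from -0.060 to 0.108, Bub3 from -0.057 to 0.060, Mad2l1 from -0.022 to 0.066, Spc24 from -0.031 to 0.084, Prc1 from -0.041 to 0.227 and Ect2 from -0.120 to 0.019. The difference of long and short members (0.014) also changed sign. It was -0.028 with the length trend removed, -0.029 with the block added, -0.021 without DMSO replicate 3 and -0.010 without GSK126 replicate 3. Its highest value was 0.071, without GSK126 replicate 2. With length taken as gene span it was 0.06, and as the length behind FPKM 0.01. These moves were smaller than its SD over the GSK126 libraries (0.072). That SD includes GSK126 replicate 3 with its length trend, so it cannot decide whether the difference is stable. How far counting error limits single members was not computed. Over the 6 libraries their reads ran from 2413 for Cdc25c to 94525 for Mki67.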

Other observations

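None of the 18 genes of the anaphase-promoting complex and its inhibitors passed the test, beside 11.1% of all tested genes called in either direction. Whether 0 among so few genes differs from that share was not tested. Their median log2 fold change was 0.01. Among the members Cdc20, Ube2c and Espl1, 2 of 3 were called, and the difference from the 18 was not tested. None of the 15 further condensin and cohesin genes passed, beside the same 11.1%, with a median of 0.08. Of 31 further kinetochore genes 2 rose, which is 6.45% beside 5.87% of all tested genes, with a median of 0.06. These counts are from edgeR, and 2 of the 18 and 2 of the 15 had an unadjusted p below 0.05, beside 27.5% of all tested genes.

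None of the 12 activators and repressors of mitotic genes passed the edgeR test either, beside 11.1% of all tested genes called in either direction. Of the 12, 6 had an unadjusted p below 0.05, beside 27.5% of all tested genes, and the median log2 fold change was -0.09. Foxm1, the factor that drives many late cell cycle genes, had a mean of 195 ± 8.02 CPM with DMSO and 217.0 ± 6.17 CPM with GSK126, without overlap (SD, n = 3; edgeR gave 0.16 on the log2 scale with SE 0.05 and an adjusted p of 0.0814). Mybl2, which encodes B-Myb, had means of 44.8 ± 3.13 and 38.9 ± 1.41 CPM in the same order, all 3 GSK126 libraries being the lower ones (SD, n = 3; edgeR gave -0.21 on the log2 scale with SE 0.07 and an adjusted p of 0.124). The estimates of Foxm1 and Mybl2 lay on opposite sides of 0, and neither passed.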
